A study of Homo sapiens with 6 samples.

Results

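The 6 genes described here encode PU.1 (SPI1) and the C/EBP family (CEBPA, CEBPB, CEBPD, CEBPE and CEBPG), transcription factors that direct the formation of granulocytes and monocytes. They were chosen by name, and all 6 were present among the 28307 genes of the count table. The libraries came from OCI-AML3, a human cell line of acute myeloid leukaemia known for a mutant NPM1 allele whose product sits in the cytoplasm (NPM1c), although the labels give the genotype as WT. The cells were lipofected at 10 nM with a control siRNA (siControl, 3 libraries) or with an siRNA to NPM1c (siNPM1c, 3 libraries), and total RNA was taken after 3 days. Every library therefore comes from 1 line that went through transfection, all carry the same batch label, and nothing in the labels says that replicates were separate cultures, so p-values measure only the spread between these libraries.

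PU.1 is an ETS-family protein that binds purine-rich DNA and opens enhancers of myeloid genes, and its dose helps to decide between the monocyte and the granulocyte fate. C/EBP proteins bind DNA as pairs joined by a leucine zipper. C/EBP alpha commits progenitors to the granulocyte and monocyte lines and slows division, C/EBP beta and C/EBP delta are induced by cytokines and stress, and C/EBP epsilon acts late in neutrophil formation. C/EBP gamma lacks a strong activating domain and mostly serves as a partner of the others.

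RefSeq promoter windows on GRCh38.p14, 250 bases before to 50 after a transcription start, were matched for 4 of the 6 genes (CEBPA, CEBPB, CEBPE and CEBPG, 6 windows in all). They were searched on both strands for GAGGAA (a purine box of the PU.1 type), TTGCNNAA (a C/EBP site), TGATGNAA (the composite site of ATF4 and a C/EBP protein), CCAAT and TATAAA (the TATA box). No match overlapped one of another motif. The 4 stretches of 30 bases below show where the members differ, with the match in capitals.
CEBPA: ggcctgccgggTATAAAagctgggccggcg
CEBPB: cgggccgccctTATAAAtaaccgggctcag
CEBPE: cattgactacaGAGGAAggaaaaggaagca
CEBPG: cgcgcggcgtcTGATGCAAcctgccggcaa
The stretch of CEBPA is chr19:33302546-33302575 on the minus strand, with its TATA box beginning at base -30 from the RefSeq start. That of CEBPB is chr20:50190790-50190819 on the plus strand, with the TATA box at -29 from the second of its 2 starts. The purine box of CEBPE is in chr14:23119278-23119307 (minus strand, first base at -41), and the composite site of CEBPG is in chr19:33374060-33374089 (plus strand, first base at -42 from its second start). The GENCODE 29 spans given below begin upstream of these RefSeq starts, so that all 4 matches lie inside the genes as annotated there. TATAAA occurs in 11.5% of all 35116 windows of 300 bases, GAGGAA in 27.9%, TGATGNAA in 3.62%, TTGCNNAA in 10.5% and CCAAT in 34.6%. CCAAT was found at CEBPB and CEBPG, and TTGCNNAA in none of the 6 windows. A match describes these letters and is not evidence that a protein binds there.

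SPI1 lies on chromosome 11 (47354860 to 47378576, minus strand, GENCODE 29 on GRCh38), and its longest annotated transcript has 5 exons. CEBPA (chromosome 19, 33299934 to 33302564, minus strand), CEBPB (chromosome 20, 50190734 to 50192689, plus strand) and CEBPD (chromosome 8, 47736909 to 47739086, minus strand) are each annotated with 1 exon. CEBPE (chromosome 14, 23117304 to 23119616, minus strand) and CEBPG (chromosome 19, 33373330 to 33382686, plus strand) have 2 exons in their longest transcripts, and CEBPG starts 70766 bases from CEBPA. Transcripts of SPI1, CEBPA, CEBPB and CEBPD are rich in G and C, at 65.6%, 65.9%, 66.2% and 70.0%, and that of CEBPG is not, at 41.9%. Fold changes in these libraries moved with GC content: the median log2 fold change was 0.10 over the 2201 tested genes at 60% GC or more and -0.18 over the 1962 genes at 40% to 44%.

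Libraries held 15075235 to 25190122 counts, of which 3414688 to 6695652 fell on protein-coding genes. Ribosomal RNA took 63.0% to 64.5% of the counts in siControl and 69.4% to 71.1% in siNPM1c. NPM1, the target, had 922, 1366 and 922 counts in siControl and 293, 500 and 350 in siNPM1c, with a log2 fold change of -1.10 ± 0.05 (SE). It was -1.57 with library sizes alone and -0.93 with a correction for GC content. Counts per gene do not separate mutant from wild-type NPM1 transcripts. Levels below are CPM, counts relative to the effective library size after TMM scaling, which sets most genes level between the groups. With library sizes alone the larger ribosomal share counts as depth. The median gene then moves by -0.47 on the log2 scale. In that setting 505 genes are called higher and 9253 lower, against 2756 and 2766 with TMM. How much of the move the ribosomal share makes up was not tested. Of 7 myeloid markers, SPI1 among them, all passed the filter on low counts, with summed levels of 291 to 298 CPM in siControl and 658 to 670 CPM in siNPM1c, most of the gain being LYZ. CD33 (9.04 and 8.54 CPM) and PTPRC, the gene of CD45 (54.9 and 37.2 CPM), did not share that direction. HBB, PF4, GP9 and CD3D, which define erythroid cells, megakaryocytes and T cells, had 0 counts in every library. ITGA2B, also a megakaryocyte marker, had 13 to 37 counts per library and was not called (1.14 and 0.976 CPM). The vessel marker PECAM1, which myeloid cells also express, rose from 43.0 ± 0.620 to 52.6 ± 3.82 CPM (SD, n = 3). Of the B cell markers, PAX5 was at 0.644 CPM in siControl and 2.99 CPM in siNPM1c, while CD79A and MS4A1 had 0 to 4 counts per library. The part of other cell types in the results below was not tested. In bulk RNA, more cells of a type and more RNA per cell cannot be told apart.

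In siNPM1c, 4 of the 5 members tested were higher and the fifth, CEBPG, did not pass the test, while CEBPE had too few counts to be tested. Over all 12938 genes tested, 21.3% were called higher and 21.4% lower at an adjusted p under 0.05 (quasi-likelihood test of edgeR, adjusted by Benjamini-Hochberg over all genes tested, the source of every adjusted p below except those of the ratios). The members' median log2 fold change was 0.40, where that of all genes tested was -0.01. The call holds relative to the bulk of genes: with library sizes alone SPI1 and CEBPB stayed higher, CEBPA turned to lower, and CEBPD was at -0.07 without a call.

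SPI1 stood at 79.3, 81.4 and 78.1 CPM in the siControl libraries and at 125.1, 125.2 and 122.0 CPM in the siNPM1c libraries. Every siNPM1c library lay far above every siControl library, and the means, 79.6 and 124.1 CPM (n = 3), differed by far more than the SD within siControl, 1.65 CPM. On the log2 scale the change was 0.64 ± 0.03 (SE; adjusted p = 3.30e-48), and 93.7% of all genes tested had a lower fold change. It was 0.52 with a correction for GC content and 0.17 with library sizes alone, and was called in each.

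CEBPA, the founding factor of the granulocyte and monocyte branch, had the most counts of the 6 genes. Its level was 219.5, 213.1 and 217.9 CPM in siControl and 262.4, 256.1 and 261.0 CPM in siNPM1c. The groups were separate, yet the rise was the smallest of the 4 called members, 1.20-fold or 0.26 ± 0.02 (SE) on the log2 scale (adjusted p = 3.47e-21). Antisense genes annotated over CEBPA share up to 659 exon bases with it, and they were not analysed here. Its direction depends on scaling: the value was 0.14 with the GC correction and -0.21 with library sizes alone (adjusted p = 7.67e-09, in the lower direction). A share of 78.6% of genes tested had a lower fold change than CEBPA.

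CEBPB, known for driving macrophage genes and emergency granulopoiesis, was at 23.2, 18.8 and 20.9 CPM in siControl and 31.7, 30.5 and 33.5 CPM in siNPM1c. The siControl libraries were spread more widely than for SPI1, but the highest of them stayed below the lowest siNPM1c library. The gene rose 1.53-fold (log2 fold change 0.62 ± 0.06, SE, adjusted p = 7.58e-18), with 0.49 under the GC correction and 0.15 under library sizes alone (adjusted p = 0.0384). An antisense gene, CEBPB-AS1, shares 231 exon bases with CEBPB. It had 2 to 10 counts per library against 389 to 637 for CEBPB, and reads of the pair cannot be told apart, because the sources used here do not state whether counting used strand.

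CEBPD, an acute-phase and stress-responsive member, was at 97.7, 93.5 and 94.4 CPM in siControl and 122.8, 131.6 and 121.6 CPM in siNPM1c. Replicate 2 of siNPM1c was the highest, and the groups did not overlap. The rise was 1.32-fold, or 0.40 ± 0.03 (SE) on the log2 scale (adjusted p = 1.34e-26). With the GC correction it was 0.26 and still called, and with library sizes alone it was -0.07 (adjusted p = 0.115). For all 4 called members the groups were separate in the same direction, as they were for 24.3% of genes tested.

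CEBPG, the partner without a strong activating domain, was at 7.12, 7.24 and 6.14 CPM in siControl and 5.64, 6.47 and 6.82 CPM in siNPM1c. These ranges overlapped, and the log2 fold change of -0.12 ± 0.12 (SE) did not pass the test (adjusted p = 0.464). It took the other sign with the GC correction, at 0.05 ± 0.12, and with library sizes alone it was -0.59 and called. CEBPG rests on 75 to 200 counts per library, so small changes were not detectable at this depth.

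CEBPE, the factor of late neutrophil maturation, had 0, 3 and 0 counts in siControl and 4, 2 and 3 counts in siNPM1c. It did not pass the filter on low counts and has no fold change here. Both groups were at or close to the floor of detection.

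**Figure D1:**
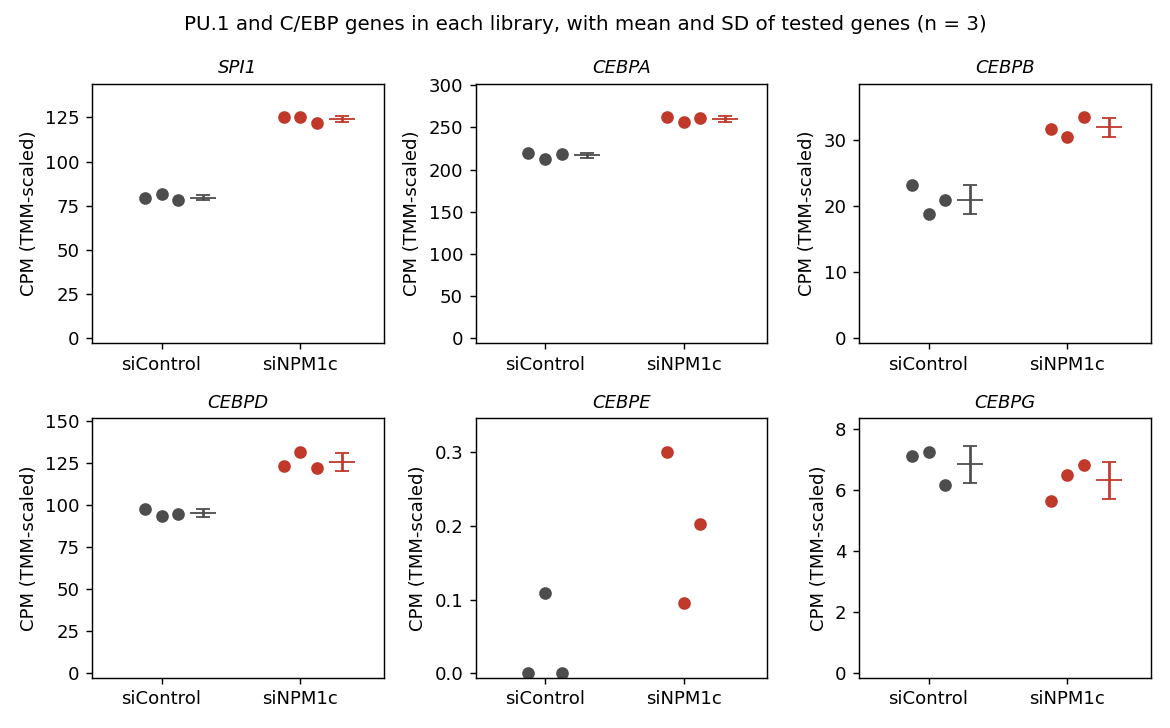
TMM-scaled CPM of each gene (vertical axes, each on its own scale) in the 3 siControl and 3 siNPM1c libraries (points), with mean and SD beside them for the 5 tested genes. SPI1, CEBPA, CEBPB and CEBPD are higher in all 3 siNPM1c libraries, CEBPG overlaps between groups and CEBPE stays at or below 0.301 CPM.

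The plot of fold changes under 3 scalings sets these values side by side. The order of SPI1, CEBPB, CEBPD, CEBPA and CEBPG from top to bottom was the same with TMM and with the GC correction. SPI1 and CEBPB were close in both, and the ratio of their counts overlapped between groups (below), so their order is not settled. Library sizes alone moved all 5 values down by nearly the same amount, so the order in that setting follows from the order with TMM. The GC correction lowered those of SPI1, CEBPA, CEBPB and CEBPD and raised that of CEBPG.

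**Figure D2:**
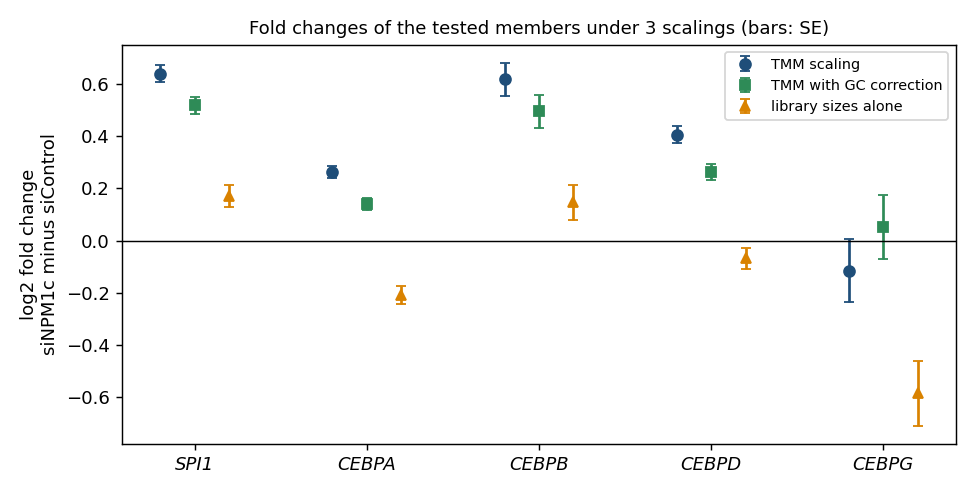
Log2 fold change (siNPM1c minus siControl, vertical axis) of the 5 tested genes with TMM scaling, with TMM and a GC correction, and with library sizes alone; bars are SE. SPI1 and CEBPB are above zero under all 3, CEBPA and CEBPD fall below zero with library sizes alone, and CEBPG is above zero only with the GC correction.

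Levels of different genes were compared per kilobase of annotated exon. CEBPA led in siControl with 82.4 ± 1.27 CPM per kilobase (SD, n = 3), followed by CEBPD at 43.7 ± 1.02, SPI1 at 38.5 ± 0.799, CEBPB at 10.7 ± 1.13, CEBPG at 1.55 ± 0.137 and CEBPE below 0.07 in each library. All neighbours from CEBPA to CEBPG were separate in their 3 values. In siNPM1c, CEBPA was at 98.8 ± 1.24, SPI1 at 59.99 ± 0.871 and CEBPD at 57.6 ± 2.50 CPM per kilobase. There SPI1 and CEBPD overlapped, so these neighbours in the order did not differ beyond their spread. CEBPB followed at 16.3 ± 0.769 and CEBPG at 1.43 ± 0.137. The place of SPI1 depends on the length used: with its longest transcript in place of all annotated exons it was at 56.8 and 88.5 CPM per kilobase, above CEBPD in both groups.

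The ratio of 2 genes within a library does not depend on how libraries are scaled to each other. SPI1 and CEBPA have like GC content, and their count ratio was 0.362, 0.382 and 0.359 in siControl and 0.477, 0.489 and 0.468 in siNPM1c. All siNPM1c libraries thus held more SPI1 per CEBPA count, by 1.30-fold (log2 difference 0.38). The ratio of CEBPA to CEBPB was 9.46, 11.3 and 10.4 in siControl and 8.28, 8.39 and 7.78 in siNPM1c. CEBPA was 1.27-fold lower relative to CEBPB, again without overlap. The ratio of SPI1 to CEBPD was 0.812, 0.870 and 0.827 in siControl and 1.02, 0.952 and 1.00 in siNPM1c, a log2 difference of 0.24. The ratio of CEBPA to CEBPD moved less, by -0.13 on the log2 scale, also with separate groups.

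SPI1 and CEBPB moved by like amounts. Their ratio was 3.42, 4.33 and 3.73 in siControl and 3.95, 4.10 and 3.64 in siNPM1c, with overlapping groups and a log2 difference of 0.03 that changed sign when a single library was left out. The ratio of CEBPB to CEBPD overlapped as well (log2 difference 0.21). Against CEBPG every other tested member was higher in siNPM1c, by 0.75 for SPI1, 0.72 for CEBPB, 0.51 for CEBPD and 0.37 for CEBPA on the log2 scale. CEBPG differs from them in GC content, and with the GC correction the fitted differences from CEBPG were 0.47 for SPI1, 0.44 for CEBPB, 0.21 for CEBPD and 0.09 for CEBPA. In all, 8 of the 10 ratios between the 5 tested members had groups that did not overlap. These ratios share the same 5 genes. The share of separate ratios among other pairs of genes was not computed, so the count does not set the members apart. With 3 libraries in each group, 0.1 is the smallest p an exact permutation test (two-sided) can reach, and over the 15 pairs, which include 5 with the nearly absent CEBPE, the smallest adjusted p was 0.167.

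**Figure D3:**
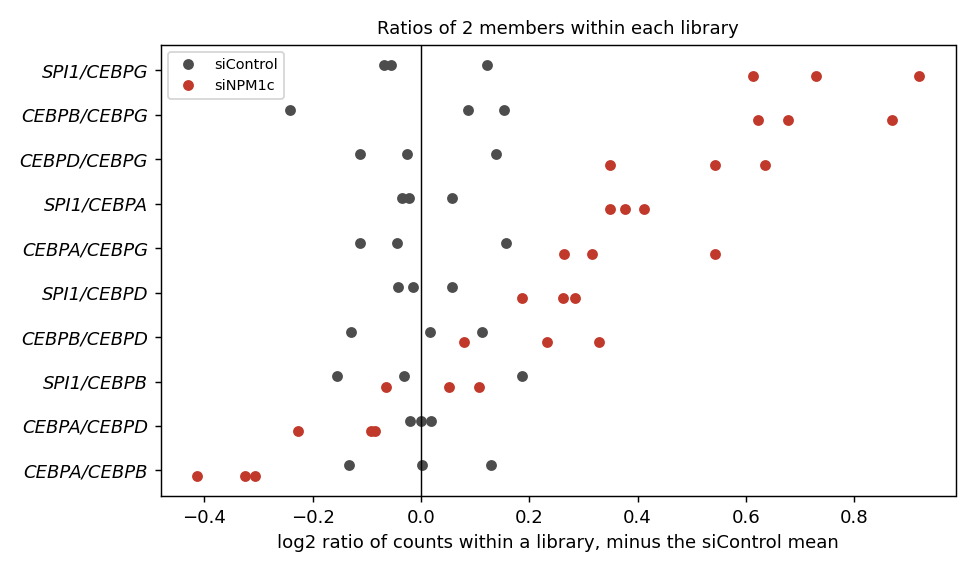
Log2 ratio of the counts of 2 members within each library, shown as the distance from the siControl mean (horizontal axis), for the 10 pairs of tested members (vertical axis); each point is 1 library. Groups are separate for 8 pairs and overlap for SPI1/CEBPB and CEBPB/CEBPD.

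Taken per kilobase and summed within a library, the C/EBP transcripts were mostly CEBPA and CEBPD in both groups. The share of CEBPA was 58.8%, 59.9% and 59.9% in siControl and 57.4%, 55.7% and 57.1% in siNPM1c, lower in each siNPM1c library than in any siControl library. The share of CEBPB went from 7.73% ± 0.634 to 9.36% ± 0.468 (SD, n = 3), and that of CEBPD from 31.6% ± 0.204 to 33.0% ± 1.31. CEBPG made up 1.12% ± 0.105 and 0.821% ± 0.0782. CEBPE stayed at or below 0.111% in every library. The groups did not overlap for the shares of CEBPA, CEBPB, CEBPD and CEBPG. Shares of a library are parts of the same sum, so they do not move independently. How often such shares separate in other gene families was not computed. The shares carry no GC correction, and with it the fitted log2 difference of CEBPA from CEBPG went from 0.38 to 0.09. No test was run on the shares, and an exact permutation test would have the same floor of 0.1.

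**Figure D4:**
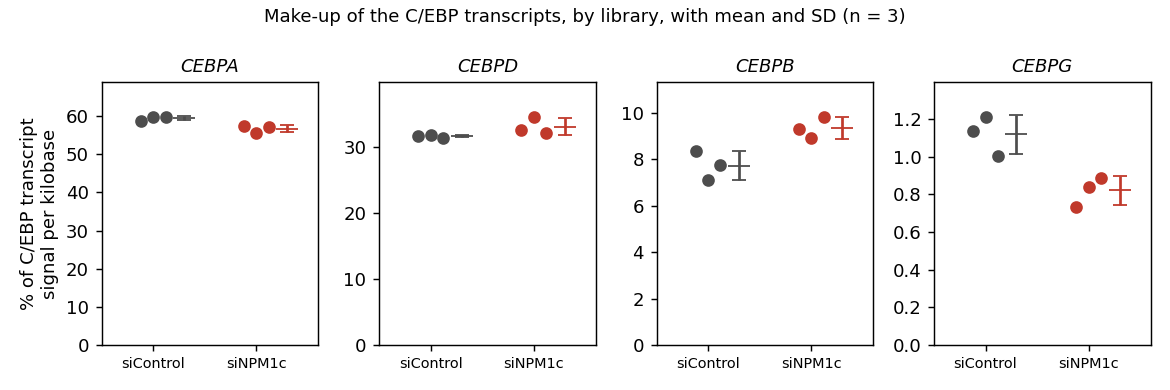
Share (%) of each gene in the summed C/EBP transcript signal per kilobase, by library (points) with mean and SD; each panel has its own vertical scale. CEBPA is lower and CEBPB higher in every siNPM1c library, while the make-up stays dominated by CEBPA and CEBPD.

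Genes around this pathway were read from 8 lists, to be set beside the 21.3% higher and 21.4% lower over all genes tested. NFIL3, ELF2, GATA2, ID2, FES, AIF1, S100A9, CEBPA-DT and MYBPC3 lost their call in a fit with 1 library left out. These were named after their values were seen. Among the relatives and leucine zipper partners of C/EBP, 9 of 13 tested genes rose and 1 fell (median 0.41 on the log2 scale). With library sizes alone 4 rose and 4 fell, and with the GC correction 9 rose and 2 fell. ATF3, a stress-induced partner, went from 2.51 ± 0.138 to 9.80 ± 1.03 CPM (SD, n = 3), a rise of 3.83-fold. FOS, an AP-1 subunit, rose from 33.0 ± 1.66 to 55.0 ± 0.534 CPM, and its dimer partner JUN by 0.68 ± 0.04 log2 (SE). ATF4, which pairs with C/EBP proteins on the composite site shown for CEBPG, rose by 0.25 ± 0.04 log2 with TMM but was at -0.22 with library sizes alone. DDIT3, the C/EBP homologous protein CHOP, named here after its values were seen, went from 5.98 ± 0.366 to 8.84 ± 0.576 CPM (log2 fold change 0.58 ± 0.11, SE), and the call was lost with library sizes alone (0.11).

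Among the ETS relatives of PU.1, 3 of 14 tested genes rose, 3 fell and 8 did not pass the test, with a median of 0.02, which is near the shares over all genes tested (21.3% higher and 21.4% lower). The split depends on scaling, with 0 higher and 11 lower under library sizes alone and 5 higher and 1 lower with the GC correction. The repressors ETV6 (log2 fold change 0.39 ± 0.04, SE) and ERF (0.47 ± 0.05) rose, as did ELK1 (0.28 ± 0.08), a target of MAP kinases, with -0.08 for ETV6, 0.00 for ERF and -0.19 for ELK1 under library sizes alone. ELF1 fell by 0.60 (SE 0.08) on the log2 scale. The closest kin of PU.1, SPIB and SPIC, had 0 to 15 counts per library and were not tested.

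Of the regulators that act upstream of these genes, 6 of 14 tested rose and 2 fell, with a median of 0.14. LYL1, a helix-loop-helix factor of progenitors, rose by 0.56 ± 0.05 log2 (SE), and STAT3, which relays the signal of the granulocyte growth factor, by 0.41 ± 0.04. LMO2 (0.28 ± 0.04) and RUNX1 (0.29 ± 0.06), which activates the SPI1 enhancer, rose as well. Under library sizes alone 0 of the 14 rose and 11 fell, with -0.19 for both LMO2 and RUNX1, -0.06 for STAT3 and 0.09 for LYL1, which lost its call. GATA2, counted among the 6 that rose, had overlapping groups and an adjusted p of 0.0493. Its call was lost without siControl replicate 2 or 3 and without siNPM1c replicate 2 or 3. It was also lost in the DESeq2 test, with limma-voom, with upper-quartile scaling, with no filter on low counts, without the robust option of edgeR and with the GC correction. With library sizes alone GATA2 was at -0.23 and called lower.

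Genes that work with PU.1 toward the monocyte fate had a median of 0.60 over 7 tested genes, of which 6 rose and 1 fell. The one that fell, ID2, an inhibitor of helix-loop-helix factors named after its values were seen, lost its call without siNPM1c replicate 1 (adjusted p = 0.0535), without siNPM1c replicate 3 (adjusted p = 0.0605) and in the DESeq2 test (adjusted p = 0.0769). IRF8, which binds composite sites together with PU.1, went from 132 ± 3.81 to 218 ± 6.06 CPM (SD, n = 3), and NAB2, a co-repressor of EGR proteins, rose by 0.60 ± 0.04 log2 (SE). EGR1 rose by 0.46 ± 0.06 with TMM and was at -0.01 with library sizes alone, a setting in which 4 of the 7 were still called higher. EGR and AP-1 genes also respond to the handling of cells, and the part of handling in these values was not tested.

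The genes that control C/EBP proteins were mixed, with 5 of 10 tested higher and 2 lower. Scaling by library sizes alone gave 1 higher and 8 lower, and the GC correction 8 higher and 2 lower. TRIB1 and TRIB2 are pseudokinases that steer C/EBP alpha to degradation, and they went in opposite directions. TRIB1 rose from 13.7 ± 0.989 to 24.6 ± 0.588 CPM (SD, n = 3), and TRIB2 fell from 22.6 ± 0.684 to 14.8 ± 1.67 CPM, and both kept their direction and call with library sizes alone. CALR, a chaperone that can bind CEBPA messenger RNA, rose by 0.34 ± 0.03 log2 (SE), with -0.13 under library sizes alone. PCBP2, an RNA-binding protein that can hold back CEBPA translation, fell by 0.43 (SE 0.04). Protein levels were not measured here.

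Among known targets of PU.1, 10 of 19 tested rose and 3 fell, with a median of 0.22. CSF1R, the receptor of the macrophage growth factor, went from 4.76 ± 0.114 to 19.5 ± 1.43 CPM (SD, n = 3). NCF4, a subunit of the phagocyte oxidase, rose by 0.59 ± 0.03 log2 (SE), and the lysosomal marker CD68 by 0.48 ± 0.04, with 0.01 for CD68 under library sizes alone. CYBB, the membrane subunit of the same oxidase, fell from 41.6 ± 1.01 to 25.8 ± 2.72 CPM. The targets thus included genes in both directions while SPI1 rose. With library sizes alone 5 rose and 10 fell.

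Of 19 listed targets of C/EBP, 11 were tested, of which 9 rose and 1 fell, with a median of 0.32. The balance turned under library sizes alone, with 3 higher, 6 lower and a median of -0.15. S100A9, counted among the 9 that rose, had an adjusted p of 0.0487. Its call was lost when any 1 siControl library was left out, and without siNPM1c replicate 1 or siNPM1c replicate 3. It was also lost in the DESeq2 test, with limma-voom, with upper-quartile scaling, with other filters on low counts and with the GC correction. With library sizes alone S100A9 was at -0.35 and called lower. LYZ, PRTN3, AZU1 and ELANE had the smallest p, and all but LYZ are genes of primary granule proteases or their kin. Their log2 fold changes were 2.32 ± 0.03 (SE) for LYZ, 1.56 ± 0.06 for PRTN3, 0.45 ± 0.02 for AZU1 and 0.42 ± 0.03 for ELANE, with -0.01 for AZU1 and -0.05 for ELANE under library sizes alone. The target that fell, MMP9, named after its values were seen, went from 22.9 ± 1.21 to 17.2 ± 0.760 CPM (SD, n = 3). The 8 untested targets were LTF, CAMP, LCN2, MMP8, BPI, PGLYRP1, CRISP3 and S100A12. Each had 0 to 9 counts per library, as CEBPE had 0 to 4.

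**Figure D5:**
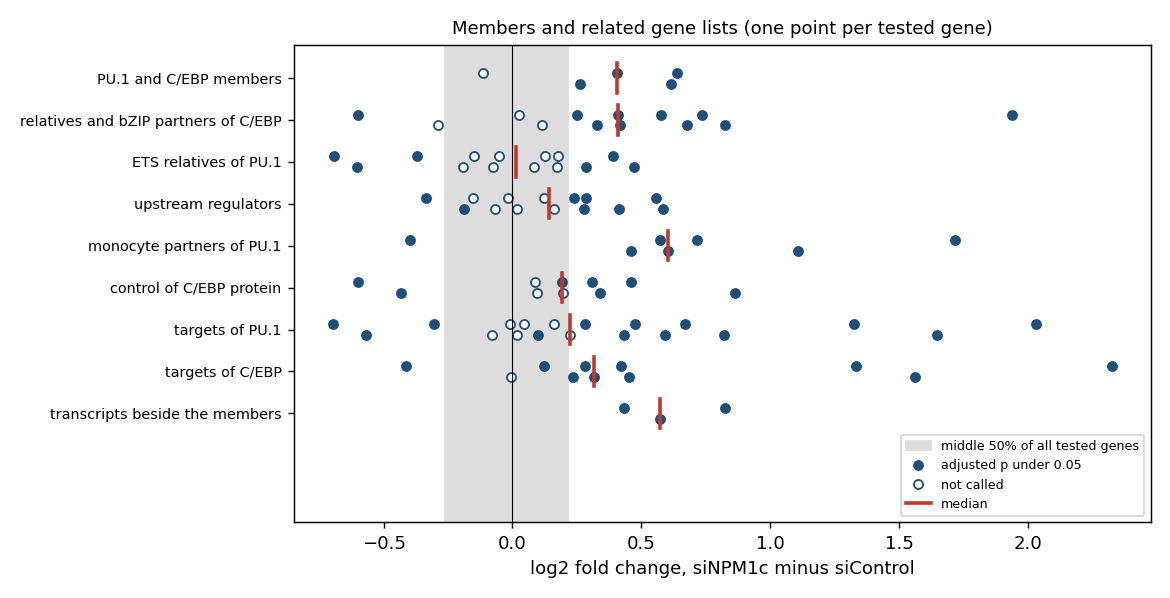
Log2 fold change (siNPM1c minus siControl, horizontal axis, TMM scaling) of each tested gene in the members and in the 8 lists (vertical axis); filled points passed an adjusted p of 0.05, red lines are medians, and the grey band holds the middle 50% of all genes tested. The monocyte partners of PU.1 have a median of 0.60 and the ETS relatives one of 0.02.

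Of 5 listed transcripts beside the members, 3 were tested and all 3 were called higher, with a median of 0.57. With library sizes alone, with the GC correction and in the DESeq2 test 1 was called, SLC39A13. SLC39A13, a zinc transporter gene 28556 bases from SPI1, rose from 29.4 ± 0.623 to 52.1 ± 3.18 CPM (SD, n = 3), with a log2 fold change of 0.83 ± 0.05 (SE). MYBPC3, 2158 bases from SPI1 on its other side, was low, at 1.75 ± 0.313 and 2.65 ± 0.313 CPM, and its call (adjusted p = 0.0186) was lost without siControl replicate 3 (adjusted p = 0.1) and without siNPM1c replicate 3 (adjusted p = 0.0957). CEBPA-DT, a noncoding gene that begins 293 bases from CEBPA on the opposite strand, was at 3.19 ± 0.593 and 4.17 ± 0.506 CPM. It was called (adjusted p = 0.0232), but its groups overlapped, it was at -0.04 with library sizes alone, and the call was lost without siControl replicate 2 (adjusted p = 0.216) and without siNPM1c replicate 2 (adjusted p = 0.211). Within 250 kilobases of SPI1, 14 genes were tested, of which 4 rose and 4 fell with a median of 0.00, to be set beside 21.3% higher and 21.4% lower over all genes tested. With TMM the rise of SPI1 and SLC39A13 was not shared by the whole stretch, where MADD was at -0.07 ± 0.04 (SE) and NR1H3 fell by 0.39 (SE 0.08). The counts depend on scaling: with library sizes alone SLC39A13 was at 0.36 and still called, PTPMT1 was at -0.08, and PSMC3, among the 4 that rose, was at -0.22 and called lower. Of the 4 that fell, KBTBD4 lost its call without siControl replicate 1 (adjusted p = 0.0828), siControl replicate 2 (adjusted p = 0.0832) or siNPM1c replicate 2 (adjusted p = 0.223). Of the 4 that rose, PTPMT1 lost its call without siNPM1c replicate 3 (adjusted p = 0.107).

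The genes most like each member were sought by the root mean square difference of centred log2 values over the 6 libraries, among 7361 genes whose mean reached 5 CPM. For SPI1 they were TSPOAP1 (0.0241), TRIM56 (0.0242) and PIM3 (0.0245). For CEBPA they were PTK2B (0.00995), ZBTB7B (0.0126) and MYO1F (0.0133), for CEBPB they were F3 (0.0106), PPM1K (0.0305) and PSMB9 (0.035), and for CEBPD they were MAFG (0.0156), TAP2 (0.024) and MIB2 (0.0251). CEBPG was closest to SPRYD4 (0.0355), ETS2 (0.0363) and DCAF15 (0.0392). With 2 groups of 3 libraries, likeness here means mostly a like fold change.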

How the data were processed

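The values are counts as deposited by the authors, whole and not normalized, under Entrez identifiers, of which 28261 of 28307 were matched to RefSeq symbols. The submitters' processing notes list CASAVA 1.8, cutadapt 2.6, STAR 2.7.5a, DESeq2 1.34.0, and 2 builds (hg38, mm10), without roles. The counting tool, its annotation and its strand setting are not given in the sources used here. Columns were mapped to samples by the names in the labels.

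The tests used edgeR 4.0.16 under R 4.3.3: filterByExpr (minimum count 10, minimum total 15), TMM, glmQLFit (robust) and glmQLFTest, two-sided, siNPM1c minus siControl, with Benjamini-Hochberg adjustment and a threshold of 0.05. The SE was taken as the size of a log2 fold change over the root of its F statistic. Ratios of 2 members used counts plus 0.5. Gene lengths and GC content came from GENCODE 29, and a lowess trend (span 0.3) gave the GC correction. Only the edgeR fit with its main settings was tested on simulated counts, which were built without a shift in ribosomal share or a trend with GC content. That test does not bear on the choice of scaling, the ratios or the GC correction. The 6 genes and the 8 lists were chosen with earlier results of these data known, and the 250-kilobase windows after the data had been seen. Named in each list were up to 4 tested genes with the smallest adjusted p, and for each member the 3 most similar genes; values of a few such genes and markers are not reported here.

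Pairs of libraries within a group differed by more than sampling noise (chi-square per degree of freedom 1.46 to 2.36 over genes with at least 20 counts, ribosomal RNA included), so no library was taken as a copy of another. The common biological coefficient of variation, the spread between replicates beyond counting noise, was 2.17%. Very small p-values rest on this narrow spread. These values do not show that the libraries came from separate cultures.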

Additional observations from a re-analysis of the deposited data

How the results depend on the processing

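Over 18 other settings (other scalings, filters and tests, a replicate block, a GC correction, and each library left out in turn), SPI1 (0.17 to 0.66) and CEBPB (0.15 to 0.69) kept their direction and call. With library sizes alone 505 genes were higher and 9253 lower (2756 and 2766 with TMM), CEBPA was at -0.21, CEBPD at -0.0677 and CEBPG at -0.59, now called. CEBPG was at 0.052 with the GC correction. The DESeq2 1.42.0 test called 1754 genes lower. The cause was not tested. With the longest transcript as length, SPI1 was at 56.8 and 88.5 CPM per kilobase. The log2 difference of SPI1/CEBPB was 0.03 and ranged from -0.0466 without siControl replicate 1 to 0.1245 without siControl replicate 2. With the replicate block the log2 fold change was 0.64 for SPI1 and 0.26 for CEBPA, and 2793 genes were higher and 2793 lower. The numbers share no stated pairing, and same-numbered libraries deviated with correlations of 0.02, -0.00 and -0.00. Of 288 counts of the gene lists under other settings, 265 stayed within 1.5 times and 23 moved further. A count of 0 under both settings was taken as unmoved. The pooled figure hides the effect of scaling: library sizes alone moved counts in every list except the monocyte partners of PU.1. CEBPE and other genes of a few counts are limited by depth.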
